A study of Danio rerio with 4 samples.

Results

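The miRNAs described here are miR-146 and miR-155 of zebrafish larvae, which are studied mainly for their part in the response of immune cells to infection and injury. They were taken from the deposited miRNA table by name, as every miR-146 or miR-155 entry whatever its letter or arm. This gave 3 of the 245 listed miRNAs, namely miR-146a, miR-146b and miR-155, each with a single entry that carries no arm. The table held small RNA of whole wild-type larvae of the Tuebingen strain at 6 dpf (days post fertilization). The 4 conditions were a blank control labelled only as wildtype, with no statement on DMSO, a vehicle control that received the solvent DMSO, and larvae given BDE47 in the same solvent at 5 μg/L or 500 μg/L. BDE47 (2,2′,4,4′-tetrabromodiphenyl ether) is a brominated flame retardant. According to the study's methods, RNA was pooled from many larvae, exposure ran from the gastrula stage to sampling, and each condition was sequenced once. In the sequencing, larvae, wells and libraries were therefore not replicated. No spread between replicates could be set against any difference, and what follows compares 4 libraries.

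A miRNA is a short RNA that binds messenger RNAs through the bases near its 5′ end, the seed, and lowers the protein made from them. In human and mouse immune cells, miR-146a is switched on by NF-κB, the transcription factor that Toll-like receptors activate, and it holds back the signalling proteins TRAF6 and IRAK1 of the same pathway, so that it acts as a brake. miR-146b has the same seed as miR-146a and comes from a separate gene. miR-155 is cut from the BIC transcript of activated mammalian macrophages and lymphocytes, and it lowers the signalling inhibitors SOCS1 and SHIP1, which favours inflammation. In zebrafish embryos, miR-146a and miR-146b are known to be induced by bacterial infection.

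All 3 entries matched a gene of the RefSeq annotation of the GRCz12tu assembly, which was used for names and neighbours only. mir146a lies next to sufu, dre-mir-146b-1 between pcyox1l and a long non-coding RNA gene, and mir155 between LOC101885604 and mrpl39. None of the 3 lies inside another annotated gene. RefSeq lists mir146b-2 as a synonym of dre-mir-146b-1. miR-146a and miR-146b are similar in sequence, so reads could be divided between their entries by the mapping, and each value is that of the entry.

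The levels are normalized counts, that is, reads of a miRNA divided by 1 size factor per library. The listed miRNAs held between 8858169 reads (blank control) and 10357704 reads (5 μg/L BDE47), and miR-146a, miR-146b and miR-155 together took from 0.0569% of them at 5 μg/L to 0.162% in the vehicle control. Intervals of levels are exact 95% Poisson intervals from the reads. They hold counting error only, with no spread between larvae or libraries. They also take each read as a separate molecule, which reads copied by PCR are not.

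miR-146a was the most abundant of the 3 in every library. Its level was 7689 normalized counts in the blank control (95% interval 7512 to 7869, 7170 reads), and 13344 with vehicle (13128 to 13562, 14562 reads). With BDE47, it was 4854 at 5 μg/L (4720 to 4991, 4969 reads) and 12267 at 500 μg/L (12045 to 12492, 11623 reads). The vehicle control and 500 μg/L libraries were thus high, the blank control was lower and the 5 μg/L library was lowest, and each step of this order exceeded counting error. Such steps are common here, as a test on reads described below separated most of the compared miRNAs in every pair of libraries. The step from the vehicle control to 500 μg/L was the smallest, at 1.09-fold (1.06 to 1.11). By rank among the 245 entries, miR-146a stood at place 59 in the vehicle control and at 500 μg/L, at place 74 in the blank control and at place 94 at 5 μg/L.

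miR-146b followed the same order at a lower level. It had 917 normalized counts in the blank control (856 to 980, 855 reads), 1585 with vehicle (1511 to 1662, 1730 reads), 803 at 5 μg/L BDE47 (749 to 860, 822 reads) and 1401 at 500 μg/L BDE47 (1326 to 1478, 1327 reads). The vehicle control and 500 μg/L libraries were again the high ones. The blank control and 5 μg/L libraries lay close together, 1.14-fold apart (1.04 to 1.26), which only just exceeded counting error.

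miR-155 was rare and had a different order. It had 135 normalized counts in the blank control (113 to 161, 126 reads), 134 with vehicle (113 to 157), 98.7 at 5 μg/L BDE47 (80.4 to 119.9, 101 reads) and 83.4 at 500 μg/L BDE47 (66.0 to 103.9, 79 reads). Counting error did not separate the control libraries (ratio 1.01, 0.789 to 1.29), and both BDE47 libraries were below them. The libraries at 5 μg/L and 500 μg/L were not separated by counting error (1.18-fold, 0.873 to 1.61). At ranks from 215 to 219 of 245, miR-155 rested on far fewer reads than either miR-146, and its intervals are wide accordingly.

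**Figure D1:**
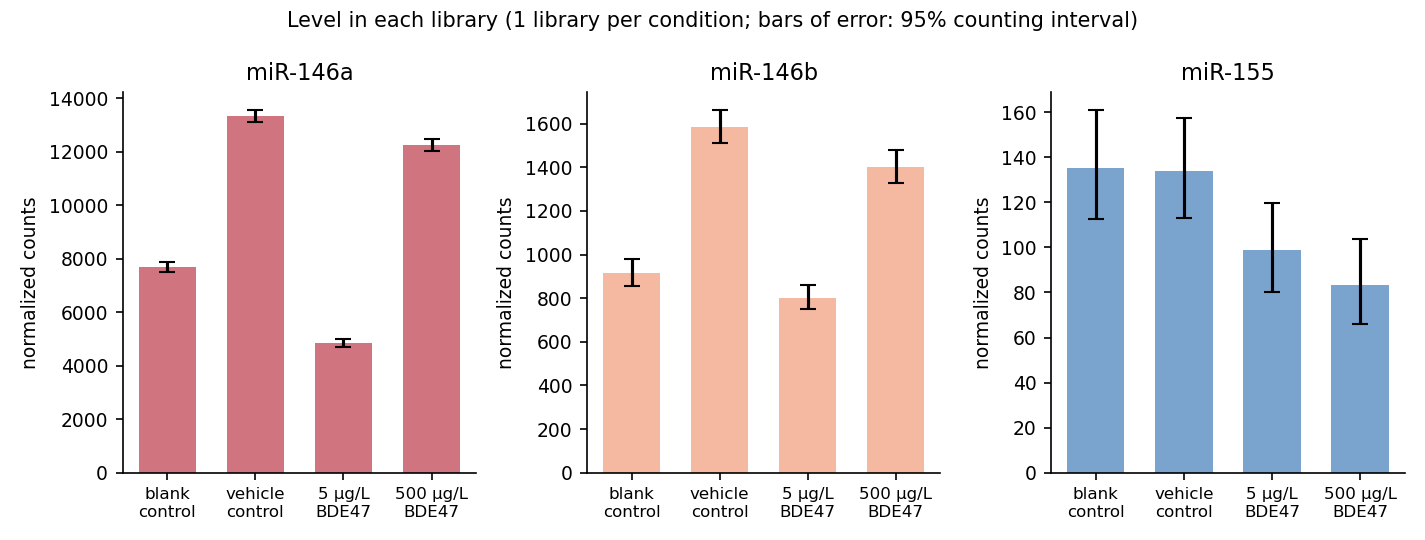
Normalized counts (vertical axes, starting at 0) of miR-146a, miR-146b and miR-155 in the 4 libraries (horizontal axes). Bars give the single library of each condition and error bars its 95% Poisson counting interval. miR-146a and miR-146b are high in the vehicle control and at 500 μg/L BDE47, whereas miR-155 is level in both controls (135 and 134) and lower in both BDE47 libraries.

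Each pair of libraries was compared by the log2 ratio of a miRNA (normalized counts plus 1), beside the ratios of 234 listed miRNAs whose level averaged 10 normalized counts or more over the libraries. All 3 entries passed this minimum. The 95% interval of a ratio is of the exact Clopper-Pearson kind and was computed on reads, without the added 1. A difference was counted when it exceeded 2-fold, the fold threshold in the study's methods. The study also set limits on p and on the false discovery rate, which were not applied to these counts.

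At 5 μg/L BDE47, all 3 miRNAs were lower than in the vehicle control, as were 48.3% of the 234 miRNAs. Of the 3, 1 (miR-146a) was beyond 2-fold, where 2.99% of the 234 were. The log2 ratio of miR-146a was -1.46 (-1.51 to -1.41), and 1 of the 234 miRNAs had a lower one. That of miR-146b was -0.98 (-1.10 to -0.86), just inside the threshold, with an interval that spans it, and -1.10 when scaled to listed totals. That of miR-155 was -0.44 (-0.82 to -0.06), and 36 of the 234 miRNAs were lower. The median of the 3 was -0.98, against 0.02 over all 234 miRNAs.

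At 500 μg/L BDE47, the 3 miRNAs were also below the vehicle control, as were 48.3% of the 234. None of the 3 was beyond 2-fold, where 8.97% of the 234 were. miR-146a (-0.12, -0.16 to -0.09) and miR-146b (-0.18, -0.28 to -0.07) lay in the middle of the table, with 98 and 82 of the 234 miRNAs lower, and against the mean of both controls they changed sign, to 0.22 and 0.16. miR-155 was farther away, at -0.68 (-1.10 to -0.28), with 32 of the 234 miRNAs lower. The order at 5 μg/L was therefore turned round, with miR-155 farthest from the vehicle control in place of miR-146a. The higher concentration lay nearer to the vehicle control than the lower one for both miR-146 miRNAs, and farther from it for miR-155 by less than counting error.

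The blank control shows how far a library without BDE47 lay from the vehicle control. miR-146a (-0.80, -0.84 to -0.75) and miR-146b (-0.79, -0.91 to -0.67) were lower there by almost the same ratio, and 7 and 8 of the 234 miRNAs were lower still. Neither was beyond 2-fold, where 1.28% of the 234 were. For both miR-146 miRNAs, the difference between the controls was larger than that between 500 μg/L BDE47 and the vehicle control. miR-155 had a log2 ratio of 0.01 (-0.34 to 0.37).

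Against the blank control, the miR-146 miRNAs lay on opposite sides at the BDE47 concentrations. miR-146a had a log2 ratio of -0.66 at 5 μg/L (-0.72 to -0.61) and of 0.67 at 500 μg/L (0.63 to 0.72). miR-146b had -0.19 at 5 μg/L (-0.33 to -0.05) and 0.61 at 500 μg/L (0.49 to 0.74). miR-155 was lower at both, with -0.45 at 5 μg/L (-0.85 to -0.06) and -0.69 at 500 μg/L (-1.12 to -0.28). miR-155 was thus below both controls, beyond counting error, at both concentrations, whereas miR-146a and miR-146b were so at 5 μg/L only. None of these 6 values was beyond 2-fold, as were 0% of the 234 miRNAs for 5 μg/L and 0.855% for 500 μg/L. Lying below both controls in both BDE47 libraries was not particular to miR-155, as miR-736, miR-19a-3p and miR-144 did so too. How many of the 234 did so beyond counting error was not counted. From the blank control, the test on reads described below separated 71.4% of the 234 in the 5 μg/L library. For the 500 μg/L library, the share was 70.1%.

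Between the BDE47 libraries, miR-146a was 2.53-fold higher at 500 μg/L than at 5 μg/L (2.44 to 2.61). Its log2 ratio of 1.34 was beyond 2-fold, as in 1.71% of the 234 miRNAs, and 1 miRNA had a higher one. miR-146b was higher by a log2 ratio of 0.80 (0.68 to 0.93), with 4 miRNAs above it, and miR-155 had -0.24 (-0.69 to 0.20). Comparisons with the same library share its error, so the values against the vehicle control, like those against the blank control, are not separate measurements of a response.

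**Figure D2:**
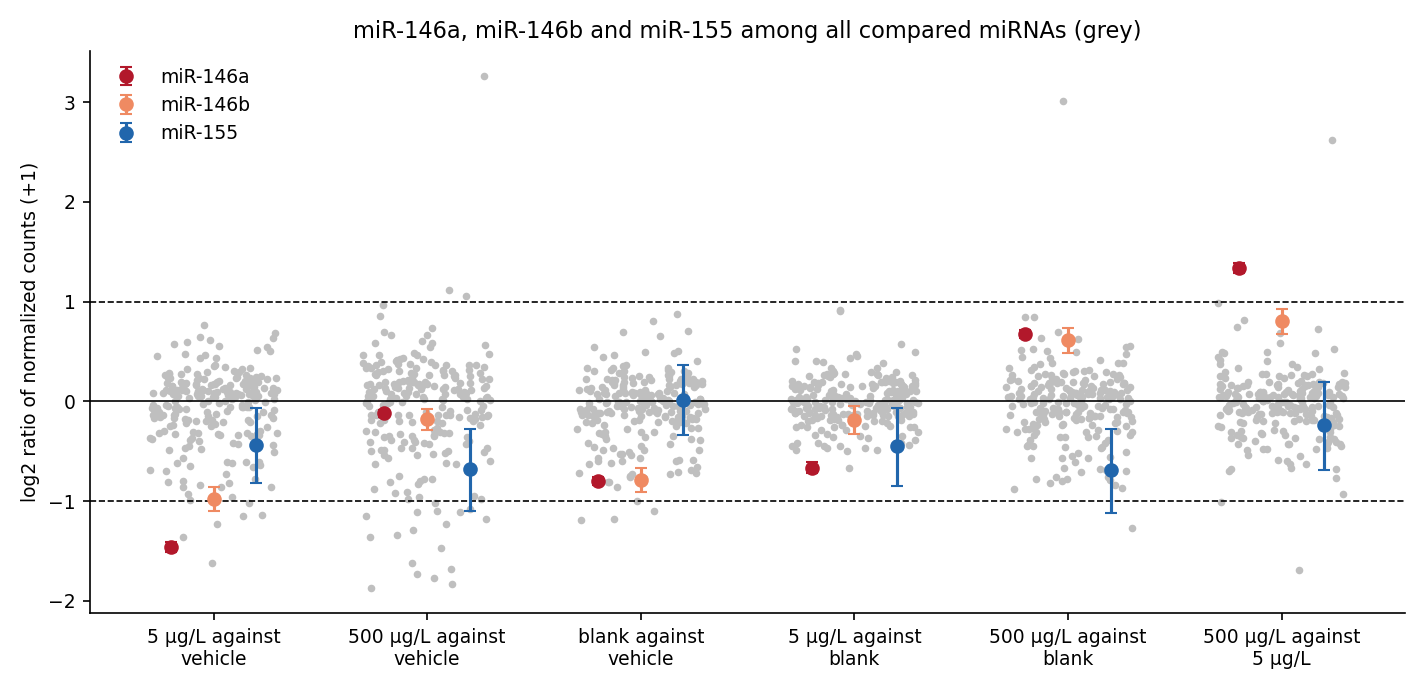
Log2 ratios, computed after adding 1 to the normalized counts (vertical axis), for the 6 pairs of libraries (horizontal axis), with 95% counting intervals for miR-146a, miR-146b and miR-155 and grey points for the other compared miRNAs. Dashed lines mark 2-fold. miR-146a passes them at 5 μg/L against the vehicle control (-1.46) and at 500 μg/L against 5 μg/L (1.34), and miR-155 is below 0 at both concentrations against either control.

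Across the 4 libraries, the highest level of miR-146a was 2.75 times its lowest, that of miR-146b 1.97 times and that of miR-155 1.62 times, where the median over the 234 miRNAs was 1.29. Of the 234 miRNAs, 9 had a wider span than miR-146a, 24 than miR-146b and 52 than miR-155. Beyond 1.5-fold of the vehicle control were 2 of the 3 at 5 μg/L (15.4% of all), 1 at 500 μg/L (20.9%) and, for the blank control, 2 (13.2%). Beyond 1.5-fold of the blank control were 1 at 5 μg/L (1.71%) and all 3 at 500 μg/L (11.1%), and 2 were so between the concentrations (8.97%). These counts join both directions, and at 500 μg/L against the blank control miR-146a and miR-146b were higher and miR-155 lower. Fisher's exact test set the reads of a miRNA against the other listed reads, which scales by listed totals and not by size factors. It was two-sided and Benjamini-Hochberg adjusted over the 234 miRNAs. At an adjusted p of 0.05, the test passed the 3 miRNAs for either concentration against the vehicle control. It is a test of libraries, and the same held for 68.8% of all miRNAs at 5 μg/L and 79.1% at 500 μg/L. Between the controls it passed 72.6% of the miRNAs, miR-146a and miR-146b among them and miR-155 not.

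Ratios of these miRNAs within a library do not depend on how libraries were scaled. miR-146a had 8.39 reads for each read of miR-146b in the blank control (7.81 to 9.01), 8.42 with vehicle (8.01 to 8.85), 6.05 at 5 μg/L BDE47 (5.61 to 6.52) and 8.76 at 500 μg/L BDE47 (8.27 to 9.28). The 5 μg/L library stood below the others, while the other three did not differ by more than counting error. As a share, miR-146a made up 85.8% of the miR-146 reads at 5 μg/L (exact Clopper-Pearson interval 84.9 to 86.7%) and 89.3% (88.7 to 90.0%), 89.4% (88.9 to 89.9%) and 89.8% (89.2 to 90.3%) in the blank control, vehicle control and 500 μg/L libraries. The ratio at 5 μg/L was 0.718 of that in the vehicle control (0.656 to 0.786) and 0.721 of that in the blank control (0.650 to 0.800). At 500 μg/L it was 1.04 of that in the vehicle control (0.964 to 1.12). At 5 μg/L, miR-146a was thus farther down than miR-146b beyond counting error. In the blank control the ratio was 0.996 of that in the vehicle control (0.913 to 1.09).

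The ratio of miR-146a to miR-155 ran from 49.2 reads per read at 5 μg/L BDE47 (40.4 to 60.5) to 147 at 500 μg/L BDE47 (118 to 186). It was 56.9 in the blank control (47.7 to 68.4) and 99.7 in the vehicle control (84.7 to 118). At 500 μg/L it exceeded both controls, by 1.48-fold over the vehicle control (1.11 to 1.97) and 2.59-fold over the blank control (1.93 to 3.48). The ratio of miR-146b to miR-155 was above both controls there as well, by 1.42-fold (1.06 to 1.91) and 2.47-fold (1.83 to 3.37). Both ratios share the 79 reads of miR-155 at 500 μg/L, so they are not separate findings. At 5 μg/L the ratio of miR-146a to miR-155 was 0.493 of that in the vehicle control (0.379 to 0.644), but did not differ from that in the blank control by more than counting error (0.865, 0.658 to 1.14). Because miRNAs are ligated with unequal efficiency, these ratios serve to compare libraries and do not give the numbers of molecules.

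**Figure D3:**
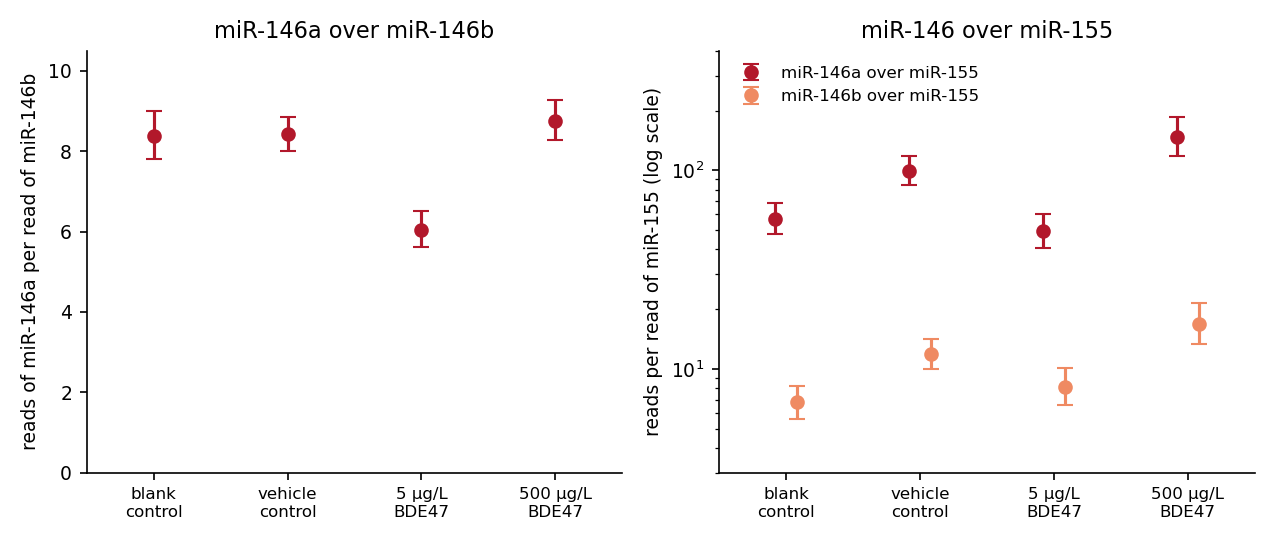
Reads of miR-146a per read of miR-146b (left, axis from 0) and of each miR-146 per read of miR-155 (right, log axis) in the 4 libraries, with 95% exact counting intervals. On the left, the 5 μg/L BDE47 library is low (6.05) and the others run from 8.39 to 8.76. On the right, the 500 μg/L library is highest for both (147 and 16.8).

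The miRNAs with the most similar profiles were found by the root mean square difference of log2 values, centred for each miRNA, over the 4 libraries. For miR-146a, the nearest of the other 233 miRNAs was miR-146b (0.22, against a median of 0.61), followed by miR-31 (0.24) and miR-132-5p (0.35). For miR-146b, they were miR-31 (0.06, against a median of 0.44), miR-132-5p (0.16) and miR-146a (0.22). miR-31 had 152 normalized counts in the blank control, 254 with vehicle, and with BDE47 140 at 5 μg/L against 247 at 500 μg/L, the same order of libraries as miR-146b. For miR-155, they were miR-736 (0.01, against a median of 0.32), miR-19a-3p (0.07), which belongs to a miRNA cluster known for its role in cell proliferation, and miR-740 (0.11), which had from 12.7 to 19.3 normalized counts. miR-155 itself took place 156 in likeness to miR-146a and place 180 to miR-146b. With 4 libraries that share the same scaling, these distances are a description.

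**Figure D4:**
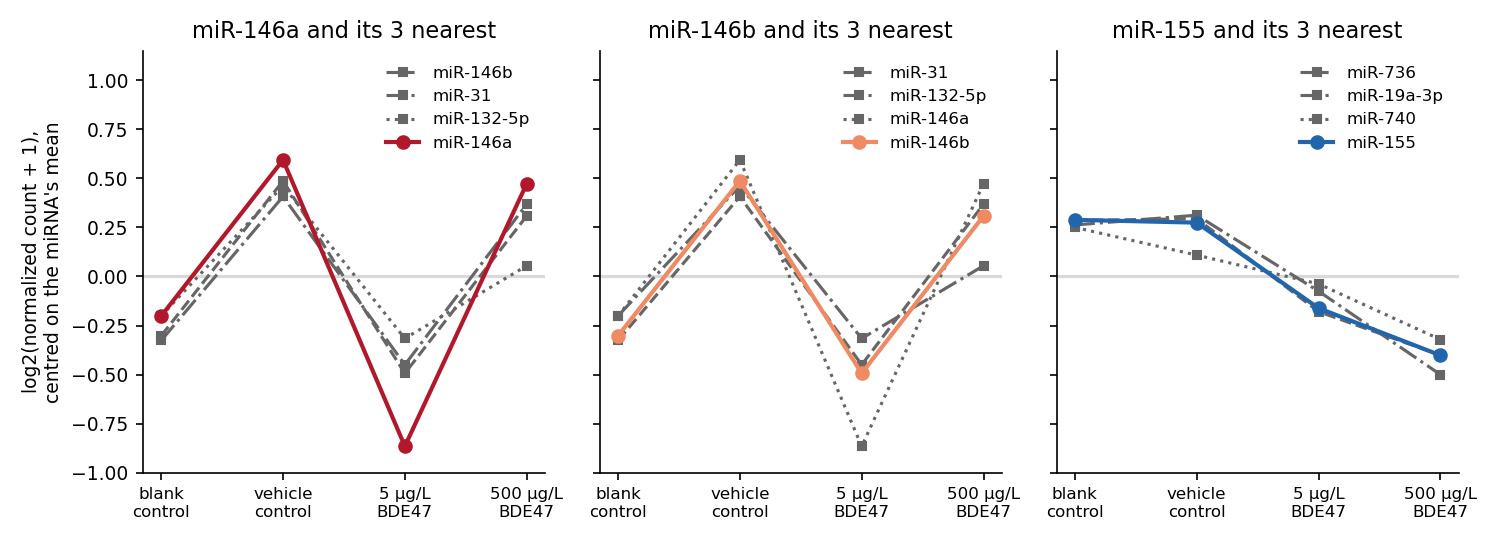
Log2 of normalized counts after adding 1, centred on the mean of each miRNA (vertical axes), in the 4 libraries (horizontal axes) for miR-146a, miR-146b and miR-155 (coloured) and the 3 nearest miRNAs of each (grey). The profiles of miR-146a and miR-146b peak in the vehicle control and at 500 μg/L BDE47, and miR-155 and its neighbours are lower in both BDE47 libraries.

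Other miRNAs known from the innate immune response of mammalian monocytes and macrophages were described as a list of 8 entries (miR-9, miR-21, miR-125 and miR-132). None of the 8 was beyond 2-fold at 5 μg/L BDE47 against the vehicle control, as were 2.99% of the 234, with 4 below and 4 above 0 and a median log2 ratio of 0.06, which became -0.06 under scaling to listed totals. At 500 μg/L, 3 were below and 5 above 0, with a median of 0.13 against 0.02 for all miRNAs. There, 0 were more than 2-fold lower, where 7.69% of the 234 were, and 1 was more than 2-fold higher, where 1.28% were. That miRNA was miR-132-3p, which is induced together with miR-146 and miR-155 by endotoxin in human monocytes and also responds to neuronal activity. It had 1556 normalized counts in the blank control, 1347 with vehicle, 1865 at 5 μg/L, and its highest level of 2799 at 500 μg/L. Against the blank control at 500 μg/L, none of the 8 was beyond 2-fold, where 0.855% of the 234 were. None was below 0, where 49.6% of the 234 were. The lowest, miR-9-5p, was at 0.03, and scaling to listed totals shifted the median over all miRNAs by -0.05 in this comparison. That shift is larger than the value of miR-9-5p, so the finding that none was below 0 depends on the scaling. The 8 entries include both arms of miR-9 and of miR-132 and several of miR-125, so they are not 8 separate miRNAs. For miR-132-3p, the log2 ratio was 0.85. The opposite arm of its hairpin, miR-132-5p, had 84.7, 135, 78.1 and 101 in the same order, the order of libraries of miR-146b and not that of miR-132-3p. miR-21, which is widely induced in inflamed mammalian tissue, had 93197, 86059, 69026 and 136432. Like miR-146a, it was lowest at 5 μg/L, but its highest level was at 500 μg/L and not in the vehicle control.

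White blood cells are one place where miR-146 and miR-155 are made, and in whole larvae fewer cells of a type and less RNA per cell cannot be told apart. All 5 white blood cell entries (miR-142a-5p, miR-142a-3p, miR-142b-5p, miR-150 and miR-223) were found in every library, and their summed level ran from 2274 normalized counts at 500 μg/L BDE47 through 2561 in the blank control and 2640 at 5 μg/L to 3363 in the vehicle control. At 500 μg/L, 3 of the 5, all of miR-142, were more than 2-fold below the vehicle control, where 7.69% of the 234 were. At 5 μg/L, 1 of the 5 (miR-142b-5p) was, where 2.99% of all were, and between the controls 0 were, where 1.28% of all were, although the miR-142 entries were lower in the blank control by log2 ratios of -0.997 to -0.62. miR-150, a lymphocyte miRNA, and miR-223, a miRNA of myeloid cells, were above the vehicle control at both concentrations, with log2 ratios from 0.48 to 0.59. In the blank control, miR-150 (0.31) and miR-223 (0.10) were above the vehicle control too. miR-146 and miR-142 were thus both highest in the vehicle control, but at 500 μg/L miR-146 was near the vehicle control while miR-142 was lowest. The red blood cell miRNAs also went apart, as miR-144 was below the vehicle control in every other library (log2 ratios of -1.68 to -1.18). miR-451 was slightly below it at 5 μg/L (-0.06) and above it in the blank control (0.19) and at 500 μg/L (0.67). The part of blood cells in the values of miR-146 and miR-155 was not tested.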

How the data were processed

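Small RNA of whole larvae was sequenced from 4 libraries, 1 per condition. The authors filtered the reads, mapped them to zebrafish miRNAs of miRBase 21.0 and deposited normalized counts, a signal of reads divided by 1 size factor per library. Of the values, 100% were whole multiples of 1 number per library (within 0.01 reads), from which the reads were read back. The factors, 0.933 to 1.09, equalled the median ratio to the geometric mean over 238 miRNAs, a scaling that assumes most miRNAs do not change. The labels name an RNA kit and the methods a small RNA kit. How reads fitting several miRNAs were counted is not given in the sources used here.

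The miRNAs and lists were chosen with earlier results of these data known. Named miRNAs are all miR-146 and miR-155 entries, the 3 nearest profiles of each, and the entries of the lists. Sequences were not used here, so miRNAs sharing a seed were not sought in the table. The alternatives were pseudocounts of 0.1 and 10, no minimum and a mean of at least 100, other scalings, both controls averaged, a 1.5-fold threshold and summed miR-146 entries. The calculations were tested on simulated data. Intervals and tests came from scipy 1.17.1 under Python 3.11.15, tables from pandas 2.3.3 with numpy 2.4.6, and plots from matplotlib 3.10.9.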

Additional observations from a re-analysis of the deposited data

Results flagged for a closer look

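Against the blank control, miR-146a and miR-146b lay on opposite sides at the BDE47 concentrations, with log2 ratios of -0.66 at 5 μg/L and 0.67 at 500 μg/L for miR-146a and of -0.19 and 0.61 for miR-146b. With 1 library per condition, the difference was not tested. Against the vehicle control, both were below 0 at both concentrations.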

How the results depend on the processing

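The pseudocounts and scaling by a trimmed mean of M values (chosen after seeing the data and computed in Python, since the planned edgeR factors were not run) left every log2 ratio of the 3 miRNAs within its counting interval and every count beyond 2-fold as it was. The minimum level cannot alter the ratio of a miRNA that passes it, as all 3 did. Scaling by listed totals shifted the median over all miRNAs by -0.12 (log2) at 5 μg/L against the vehicle control. miR-146a then had -1.58 at 5 μg/L and -0.20 at 500 μg/L against the vehicle control, and -0.75 and 0.63 against the blank control. miR-146b also passed 2-fold at 5 μg/L, for 2 miRNAs in place of 1. With the mean of both controls in place of the vehicle control, miR-146a and miR-146b had -1.12 and -0.64 at 5 μg/L and changed sign at 500 μg/L, to 0.22 and 0.16, since the blank control was lower for both. With miR-146 entries summed, miR-146a became -1.40 at 5 μg/L against the vehicle control, -0.61 against the blank control and 1.27 at 500 μg/L against 5 μg/L. A 1.5-fold threshold, which passes more miRNAs, gave, against the vehicle control, 2 miRNAs in the blank control, then 2 at 5 μg/L but 1 at 500 μg/L, 1 and 3 at 5 and 500 μg/L against the blank control, and 2 between the concentrations. The median of the immune list changed sign under listed totals at 5 μg/L against the vehicle control (0.06 to -0.06) and, for the blank control, from -0.02 to 0.006 under the trimmed mean and to 0.07 with a mean of at least 100. No paired analysis was possible because each condition has 1 library. The depth limits miR-155 above all, at 79 reads in the 500 μg/L library.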
